A study of Homo sapiens with 3 samples.

Results

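Transcripts of the plasminogen activation system were counted in 3 bulk RNA sequencing libraries of cells labelled HCT116, a colorectal carcinoma line. The genes described are PLAU, PLAT, PLAUR, SERPINE2 and SERPINB2, found by name in the deposited FPKM table, where each matched 1 of 58735 rows. FPKM is a fragment count scaled to gene length and to library size. The groups were ZEB1 K80R overexpression, wild-type ZEB1 overexpression and an empty vector, with 1 library each. ZEB1 is a transcription factor that represses epithelial genes, and K80R puts an arginine in place of a lysine. All 3 groups carried the same treatment entry, control, and the sources used here do not say whether a line was a clone or a pool. The series title concerns NF-κB, the epithelial-mesenchymal transition and inflammatory genes under the K80R form.

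Plasminogen activators are serine proteases that cut the zymogen plasminogen into plasmin, which dissolves fibrin, degrades matrix proteins and activates other proteases. Urokinase, the product of PLAU, is held at the cell surface by the urokinase receptor uPAR, the product of PLAUR, while tissue-type activator, the product of PLAT, is best known for the lysis of clots. Serpins trap these proteases irreversibly. In colorectal carcinoma, urokinase and its receptor are known for their presence at the invasive edge of the tumour.

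The libraries held 13479517 reads for ZEB1 K80R, 14322537 for wild-type ZEB1 and 14764535 for empty vector, and the members took 0.250% of them in K80R, 0.277% in wild type and 0.208% in empty vector. No spread between cultures could be measured, so the conditions could not be tested. Brackets after a ratio give its exact 95% interval, which covers counting error only, as reads without molecular identifiers are not independent molecules. ZEB1 itself had an FPKM of 10.3 in K80R, 9.83 in wild type and 5.66 in empty vector, and the table does not tell introduced from endogenous ZEB1. Scaled to a common sum of FPKM (TPM), ZEB1 stood closer together, at 33.9 in K80R, 32.0 in wild type and 25.3 in empty vector. Of 13 colon epithelial markers, 10 had 0 reads in all 3 libraries, among them EPCAM, CDH1, CDX2 and KRT20, and the highest value was 0.236 FPKM, so the labelled epithelial identity was not seen in these markers. Markers of other cells that make plasminogen activators or their inhibitors were low as well. The summed FPKM of 7 endothelial markers was 1.01 in K80R, 1.29 in wild type and 0.811 in empty vector, that of 7 leukocyte and macrophage markers was 1.56 in K80R, 1.41 in wild type and 0.807 in empty vector, with PTPRC, TYROBP and CD163 at 0 reads, and that of 8 fibroblast markers was 2.40 in K80R, 3.38 in wild type and 2.83 in empty vector, with PDGFRA, LUM and FAP at 0 reads. A mean FPKM of 1 was reached by 2 of the fibroblast markers, 1 of the leukocyte and macrophage markers and 0 of the endothelial markers. The highest values were 2.19 for PDGFRB, 1.34 for CSF1R and 0.681 for the endothelial TEK. The part of cells of these types in the results was not tested. Fewer cells of a type and less RNA per cell cannot be told apart in such bulk libraries.

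Mitochondrial genes took 9.75% of the reads of the K80R library, 7.77% in wild type and 1.29% in empty vector, and the choice of scaling changes the comparisons with empty vector. As deposited, the median of the 12605 compared genes, those averaging 1 FPKM or more over the libraries, differed from empty vector by 0.00 for K80R and 0.01 for wild type on the log2(FPKM + 1) scale. At a common sum of FPKM (TPM) the median of the same genes was −0.41 for K80R and −0.42 for wild type against empty vector, so differences at that scale are read relative to that shift. The part of mitochondrial reads in the differences was not tested.

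The 5 genes spanned a wide range of levels, with PLAU far above the rest and SERPINB2 close to 0. PLAU had an FPKM of 448 in K80R, 511 in wild type and 381 in empty vector, which ranked 42nd in K80R, 47th in wild type and 45th in empty vector among all genes. PLAT had an FPKM of 89.8 in K80R, 93.2 in wild type and 40.3 in empty vector. PLAUR had an FPKM of 65.3 in K80R, 91.8 in wild type and 53.9 in empty vector. PLAT was thus higher under both ZEB1 forms than under empty vector, while PLAUR was highest under wild-type ZEB1. SERPINE2 had an FPKM of 36.1 in K80R, 37.9 in wild type and 33.9 in empty vector, nearly level over the libraries. SERPINB2 had an FPKM of 1.12 in K80R, 0.976 in wild type and 0.137 in empty vector, from 41 reads in K80R, 37 in wild type and 6 in empty vector. In the K80R library the order was PLAU, PLAT, PLAUR, SERPINE2, SERPINB2. PLAT and PLAUR did not differ beyond counting error in wild type, with a ratio of 1.02 (0.982 to 1.05), and PLAT was below PLAUR in empty vector, with a ratio of 0.748 (0.716 to 0.782).

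**Figure D1:**
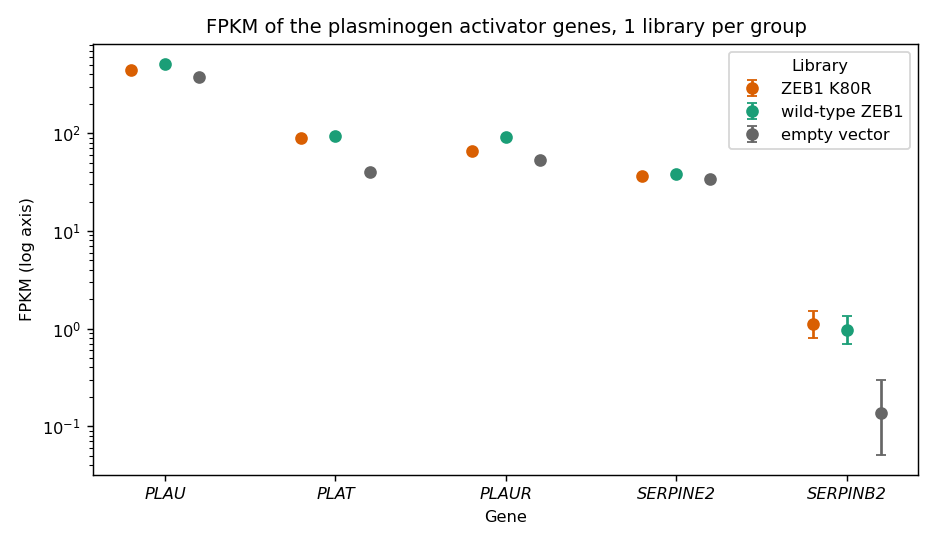
FPKM on a log axis for each member gene in the ZEB1 K80R, wild-type ZEB1 and empty vector libraries, 1 point per library, with exact 95% counting intervals where they exceed the point. PLAU lies near or above 381 in every library, PLAT is separated from its empty vector value of 40.3 in both ZEB1 libraries, and SERPINB2 is at or below 1.12.

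Levels between genes depend on the length by which reads are divided. The deposited lengths equalled the union of all GENCODE 29 exons for each member, 2950 bases for PLAU, 6618 for PLAT, 4457 for PLAUR, 8891 for SERPINE2 and 2748 for SERPINB2. The longest coding transcripts of the GENCODE basic set were shorter, at 2658, 2706, 1610, 2569 and 2155 bases. Divided by these, the level of PLAU was 497 in K80R, 567 in wild type and 423 in empty vector. That of PLAUR was 181 in K80R, 254 in wild type and 149 in empty vector, and that of SERPINE2 was 125 in K80R, 131 in wild type and 117 in empty vector. PLAT stood at 220 in K80R, 228 in wild type and 98.5 in empty vector by the same lengths, below PLAUR in the wild-type library and below both PLAUR and SERPINE2 in the empty vector library. This length was chosen after the values were seen, and it leaves the ratios between libraries as they are.

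Upstream sequence was matched for 4 of the 5 members in the RefSeq promoter table (GRCh38.p14), and stretches are shown because ZEB1 binds E-boxes, the series title names NF-κB, and AP-1 is a known regulator of urokinase system genes. Each window was the 250 bases before an annotated start, numbered back from −1. Capitals mark E-boxes (CANNTG) and AP-1 sites (TGANTCA), searched on both strands. The ZEB1 type of E-box, CACCTG or its reverse complement, is one of the CANNTG matches. Stretches end before the first annotated exon base where one lies in the window. The PLAUR window lies within an annotated exon of a longer transcript, so 30 bases around its AP-1 match are given.
PLAU, chr10:73910882-73911103, plus strand, −250 to −29: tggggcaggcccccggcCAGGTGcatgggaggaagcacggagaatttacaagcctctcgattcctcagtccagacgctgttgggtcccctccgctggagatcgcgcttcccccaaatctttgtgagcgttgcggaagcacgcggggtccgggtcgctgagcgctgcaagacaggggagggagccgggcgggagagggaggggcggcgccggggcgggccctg
PLAUR, chr19:43670337-43670366, minus strand, −197 to −168: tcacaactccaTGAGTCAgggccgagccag
SERPINE2, chr2:224031479-224031728, minus strand, −250 to −1: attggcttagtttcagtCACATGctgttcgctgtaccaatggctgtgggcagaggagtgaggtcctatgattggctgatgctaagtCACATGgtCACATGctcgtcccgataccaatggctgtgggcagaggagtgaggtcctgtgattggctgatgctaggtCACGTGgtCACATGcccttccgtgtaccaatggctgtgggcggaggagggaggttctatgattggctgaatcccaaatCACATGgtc
SERPINB2, chr18:63887455-63887699, plus strand, −250 to −6: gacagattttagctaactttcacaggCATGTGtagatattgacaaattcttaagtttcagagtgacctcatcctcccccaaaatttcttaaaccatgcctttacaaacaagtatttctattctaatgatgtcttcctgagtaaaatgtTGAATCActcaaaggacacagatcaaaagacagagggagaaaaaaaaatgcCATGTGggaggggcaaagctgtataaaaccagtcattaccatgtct

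The PLAU window held 1 E-box of the ZEB1 type, at −233 to −228, and no AP-1 match. PLAUR had the AP-1 match TGAGTCA at −186 to −180 and 1 E-box, and SERPINB2 had the AP-1 match TGAATCA at −102 to −96 and 2 E-boxes. The SERPINE2 window held 6 E-boxes, 5 with the letters CACATG and 1 with CACGTG, and no AP-1 match. A second start of PLAU (position 73910610) had neither motif in its window, and a second start of SERPINE2 (position 224038640) had 2 E-boxes and no AP-1 match. No window held the NF-κB consensus. Of all 35116 promoters in the table, 6.57% had an AP-1 match in the same window, 61.8% an E-box, 17.5% the ZEB1 type of E-box and 9.96% the NF-κB consensus. These matches are letters in a short window and show no binding.

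Wild-type ZEB1 against empty vector gave higher deposited FPKM for all 5 members. The ratios ran from 1.12-fold for SERPINE2 to 7.10-fold for the sparsely read SERPINB2. PLAU (−0.04) and SERPINE2 (−0.30) were lower at a common sum, yet above the median of all compared genes there, −0.42. At a common sum without mitochondrial genes both were higher, PLAU by 0.34 and SERPINE2 by 0.08, where the median was −0.06. A gene was called when its ratio of FPKM + 1 was at least 1.5, the measure meant from here on by 1.5-fold. SERPINB2 averaged under 1 FPKM, so 4 of the 5 members entered this comparison. Of these, 2 were called higher, PLAT and PLAUR, and 0 lower, where 14.2% of the 12605 compared genes were called higher and 11.1% lower (7.81% and 38.2% of the same genes at a common sum). With 4 genes these counts are a description.

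Among the activators, PLAT (ENSG00000104368; GRCh38, chromosome 8, 42175233 to 42207724, minus strand) had 8512 reads under wild-type ZEB1 and 4236 under empty vector. Its FPKM of 93.2 in wild type against 40.3 in empty vector was a ratio of 2.31 (2.23 to 2.40), a difference of 1.19 on the log2(FPKM + 1) scale that lay above 96.2% of the compared genes. The PLAT difference was 0.75 at a common sum, still above 1.5-fold. PLAU (ENSG00000122861; chromosome 10, 73909177 to 73917497, plus strand) had 20782 reads in wild type against 17863 in empty vector, and its FPKM of 511 in wild type against 381 in empty vector was a ratio of 1.34 (1.31 to 1.37). The PLAU difference of 0.42 lay above 78.9% of genes, within the 1.5-fold range, and was −0.04 at a common sum. PLAU overlaps C10orf55 on the opposite strand, which had 16 reads in K80R, 32 in wild type and 38 in empty vector. The sources used here do not state the strand setting, so reads of this pair may not be told apart.

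PLAUR, the receptor (ENSG00000011422; chromosome 19, 43646095 to 43670547, minus strand), had 5646 reads under wild-type ZEB1 and 3814 under empty vector. Its FPKM of 91.8 in wild type against 53.9 in empty vector was a ratio of 1.70 (1.64 to 1.78). The difference of 0.76 lay above 90.8% of genes. It was 0.31 at a common sum, which is under 1.5-fold and ends the call of PLAUR there. At a common sum without mitochondrial genes the difference was 0.69, above 1.5-fold. The short RNA gene RN7SL368P lies within PLAUR on the same strand and had 5 reads in K80R, 12 in wild type and 6 in empty vector.

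The inhibitors differed from each other in level. SERPINE2 encodes protease nexin-1, an inhibitor of thrombin, urokinase and tissue-type activator (ENSG00000135919; chromosome 2, 223975112 to 224039319, minus strand). Its FPKM of 37.9 in wild-type ZEB1 against 33.9 in empty vector was a ratio of 1.12 (1.07 to 1.16), a difference of 0.16 above 61.9% of genes that was −0.30 at a common sum. SERPINB2 encodes plasminogen activator inhibitor 2, which occurs largely inside cells (ENSG00000197632; chromosome 18, 63871692 to 63903890, plus strand). It had 37 reads in wild type against 6 in empty vector, a ratio of 7.10 (2.97 to 20.6), with a mean FPKM of 0.744 over the 3 libraries, below the minimum for comparison. Its difference of 0.80 on the log2(FPKM + 1) scale is held down by the pseudocount, and was 1.37 at a common sum. Genes with exactly 1 read numbered 2902 in K80R, 2705 in wild type and 350 in empty vector, and genes with 6 reads numbered 501 in K80R, 492 in wild type and 381 in empty vector. The part of this scarcity of low counts in the SERPINB2 ratios was not tested. SERPINB10, which overlaps SERPINB2, had 0 reads in all 3 libraries.

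**Figure D2:**
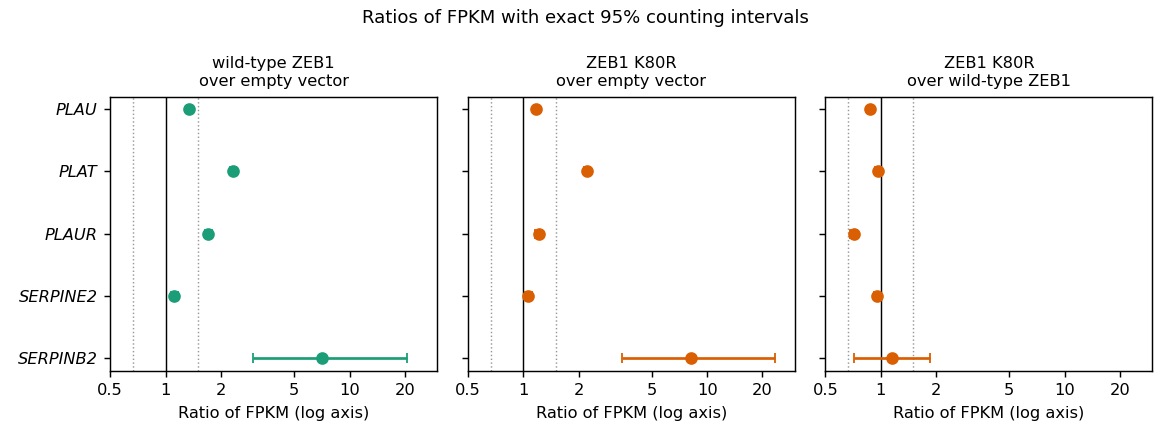
Ratio of FPKM on a log axis for each member in the 3 comparisons, with exact 95% counting intervals. The solid line marks 1 and the dotted lines a 1.5-fold difference. PLAT lies to the right of the dotted line against empty vector in both ZEB1 libraries, PLAUR only in the wild-type library (ratio 1.70), and SERPINB2 has wide intervals.

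ZEB1 K80R against empty vector gave a PLAT level close to that of wild-type ZEB1 and smaller differences for PLAU and PLAUR. Of the 4 members compared, PLAT was called higher and 0 were called lower, where 12.6% of compared genes were called higher and 1640 of 12605 lower (7.31% and 37.5% at a common sum). This comparison shares its empty vector library with the previous one. PLAT had 7918 reads in K80R against 4236 in empty vector and an FPKM of 89.8 in K80R against 40.3 in empty vector, a ratio of 2.23 (2.15 to 2.31). Its difference of 1.14 lay above 96.1% of genes and was 0.71 at a common sum.

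PLAU stood at 448 FPKM in K80R against 381 in empty vector, a ratio of 1.18 (1.15 to 1.2). PLAUR stood at 65.3 in K80R against 53.9 in empty vector, a ratio of 1.21 (1.16 to 1.27). SERPINE2 stood at 36.1 in K80R against 33.9 in empty vector, a ratio of 1.06 (1.02 to 1.11). These 3 genes lay within 1.5-fold, with differences of 0.23 for PLAU, 0.27 for PLAUR and 0.09 for SERPINE2. These lay above 68.5%, 71.4% and 56.8% of compared genes for PLAU, PLAUR and SERPINE2 in turn. Each was below 0 at a common sum, at −0.21 for PLAU, −0.16 for PLAUR and −0.35 for SERPINE2, and still above the median of all genes at that scale. Without mitochondrial genes in the sum they were 0.31 for PLAU, 0.36 for PLAUR and 0.17 for SERPINE2, where the median was 0.08. SERPINB2 had 41 reads in K80R against 6 in empty vector, a ratio of 8.15 (3.44 to 23.5).

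ZEB1 K80R against wild-type ZEB1 gave the largest member difference for the receptor. PLAUR stood at 65.3 FPKM in K80R against 91.8 in wild type, a ratio of 0.712 (0.683 to 0.741), and its difference of −0.48 lay above only 8.69% of compared genes. PLAU stood at 448 in K80R against 511 in wild type, a ratio of 0.878 (0.860 to 0.895), with a difference of −0.19 above 30.2% of genes. PLAT, at 89.8 in K80R against 93.2 in wild type, had a ratio of 0.963 (0.934 to 0.993), and SERPINE2, at 36.1 in K80R against 37.9 in wild type, one of 0.953 (0.914 to 0.993). None of the 4 compared members was called in either direction, where 4.42% of genes were called higher and 5.18% lower. SERPINB2, at 41 reads in K80R against 37 in wild type, had a ratio of 1.15 (0.718 to 1.84), so a difference was not detectable at this depth. PLAUR and PLAU kept their sign at a common sum (−0.47 for PLAUR, −0.17 for PLAU) and at a common sum without mitochondrial genes (−0.34 for PLAUR, −0.03 for PLAU). The signs of PLAT and SERPINE2 turned at the last scale, to 0.10 for PLAT and 0.08 for SERPINE2, where the median of all compared genes was 0.12.

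**Figure D3:**
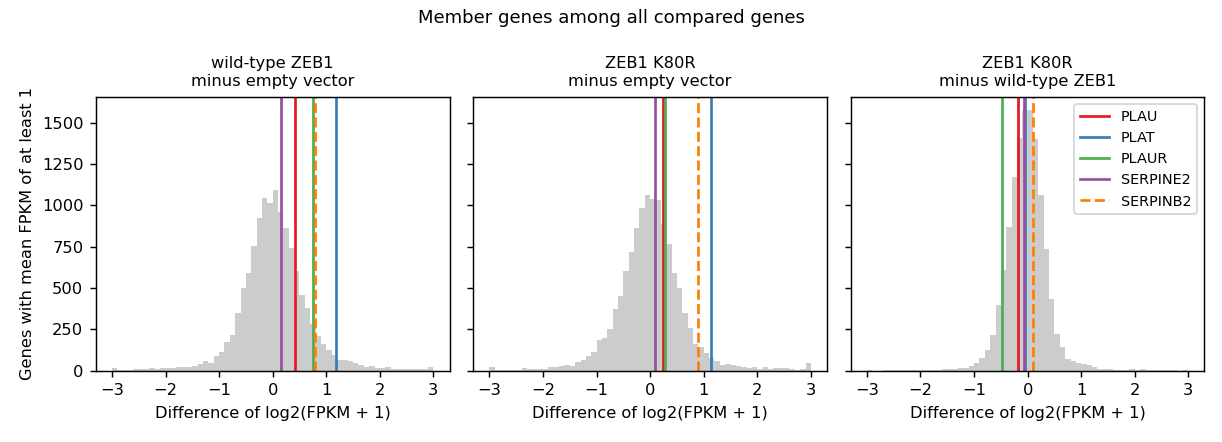
Histograms of the difference of log2(FPKM + 1) over the 12605 compared genes in each comparison, values beyond 3 drawn at 3, with lines at the member genes. SERPINB2 is dashed because its mean FPKM of 0.744 is under the minimum of 1. PLAT lies in the upper tail against empty vector, at 1.14 in K80R and 1.19 in wild type, and PLAUR in the lower part of the K80R against wild-type panel, at −0.48.

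The proportions of the members within a library differed accordingly. PLAU exceeded its receptor gene PLAUR 6.86-fold (6.62 to 7.10) in the K80R library, 5.56-fold (5.40 to 5.73) in wild-type ZEB1 and 7.08-fold (6.83 to 7.33) in empty vector. PLAU exceeded PLAT 4.99-fold (4.86 to 5.12) in K80R, 5.48-fold (5.34 to 5.62) in wild type and 9.46-fold (9.15 to 9.78) in empty vector. PLAT exceeded the inhibitor gene SERPINE2 2.49-fold (2.39 to 2.58) in K80R, 2.46-fold (2.37 to 2.55) in wild type and 1.19-fold (1.14 to 1.24) in empty vector. Among these 3 ratios, that of PLAT to SERPINE2 had K80R and wild-type values within each other's intervals and apart from empty vector, while that of PLAU to PLAUR was lowest in wild type. They do not depend on the scaling of the libraries, but they do on gene length. By the longest coding transcripts, PLAU exceeded PLAUR 2.75-fold in K80R, 2.23-fold in wild type and 2.84-fold in empty vector, and PLAU exceeded PLAT 2.26-fold in K80R, 2.49-fold in wild type and 4.29-fold in empty vector. PLAT to SERPINE2 was then 1.76 in K80R, 1.74 in wild type and 0.839 in empty vector, on the other side of 1 in empty vector. These ratios compare transcripts, not proteins.

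Genes whose pattern over the 3 libraries was most like that of a member were sought among 6536 protein-coding genes averaging 5 FPKM or more, by the distance between their differences from empty vector in wild type and K80R on the log2(FPKM + 1) scale. For PLAU the nearest were PDZD11, TM4SF1 and VDAC1, at distances of 0.00645, 0.00763 and 0.0150. For PLAT they were SNRPA, NCSTN and CD44, the last a hyaluronan receptor with an FPKM of 141 in K80R, 149 in wild type and 62.9 in empty vector, at distances of 0.0264, 0.0361 and 0.0460. For PLAUR they included P4HA1 and PGK1, at 0.0121 and 0.0320. The glycolytic enzyme gene PGK1 had an FPKM of 134 in K80R, 193 in wild type and 111 in empty vector. For SERPINE2 they were TCF25, TTYH3 and the kinase gene TBK1, at 0.0119, 0.0120 and 0.0147. With 3 libraries such likeness is only a description.

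The substrate of the activators and several fluid-phase regulators had 0 reads in these libraries, while cell-surface plasminogen receptors ranged from low to very high levels. Of 36 further genes of plasminogen activation and its regulation, 9 had 0 reads in all 3 libraries, among them PLG, which encodes plasminogen, the matrix protein gene VTN and the contact-system protease gene KLKB1, and 15 reached a mean FPKM of 1. ENO1, an enolase that also binds plasminogen at the cell surface, stood at 498 FPKM in K80R, 633 in wild type and 341 in empty vector. ANXA2 and S100A10 form a heterotetramer that binds plasminogen and tissue-type activator. ANXA2 stood at 229 in K80R, 272 in wild type and 222 in empty vector, and S100A10 at 87.3 in K80R, 134 in wild type and 65.6 in empty vector. PLGRKT, a transmembrane plasminogen receptor, stood at 6.74 in K80R, 9.76 in wild type and 2.95 in empty vector.

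Of those 15 genes, 7 were called higher and 0 lower in wild-type ZEB1 than in empty vector (14.2% and 11.1% of all compared genes), with a median difference of 0.52 where that of all compared genes was 0.01. They were PLGRKT (FPKM ratio 3.31), the pericellular proteins PDPN (2.43) and CDCP1 (1.86), the protease CTSB, a known activator of pro-urokinase (2.02), S100A10 (2.04), ENO1 (1.86) and MRC2, a collagen receptor that associates with uPAR (1.66). In K80R against empty vector, 4 were called higher (12.6% of all compared genes) and 0 lower, PLGRKT (2.28), CDCP1 (2.18), PDPN (2.39) and CTSB (1.90), with a median of 0.38 against 0.00 for all compared genes. The clearance receptor gene LRP1, whose product takes up protease-serpin complexes, lay within 1.5-fold, at 24.1 FPKM in K80R, 26.5 in wild type and 18.3 in empty vector. At a common sum, 3 were called higher in K80R (PLGRKT, PDPN and CDCP1) and 2 lower (LRPAP1 and F12). Of all compared genes 7.31% were called higher and 37.5% lower, and the list median of −0.04 stood beside −0.41 for all genes. In wild type 2 were called higher (PLGRKT and PDPN) and 1 lower (LRPAP1), where 7.81% and 38.2% of all compared genes were. The median was 0.14 where that of all genes was −0.42.

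In K80R against wild type, 13 of the 15 genes had a lower FPKM, against 52.4% of all compared genes, and the median difference was −0.25 where that of all compared genes was −0.02. S100A10 was the gene called lower, with a ratio of 0.652 (0.614 to 0.691), and 0 were called higher, where 4.42% of compared genes were called higher and 5.18% lower. ENO1 (0.786), VLDLR, a receptor that clears protease-inhibitor complexes (0.719), and PLGRKT (0.690) were lower by less than the 1.5-fold limit on the FPKM + 1 scale. At a common sum without mitochondrial genes, 8 of the 15 were lower, with a median of −0.09 against 0.12 for all compared genes, and S100A10, at −0.46, was no longer called.

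uPAR has no cytoplasmic part and signals through integrins and growth factor receptors. Of 24 genes for uPAR partners and relatives in the Ly6/uPAR family, 16 reached a mean FPKM of 1. In wild-type ZEB1 against empty vector, 3 were called higher (14.2% of all compared genes) and 0 lower, ITGA5 (2.38), EGFR (1.58) and CAV1 (1.54), with a median of 0.41. With the common sum the median was −0.04 where that of all compared genes was −0.42, and EGFR (0.19) and CAV1 (0.16) lost their calls. LYPD1 and LY6K were called lower there, as were 38.2% of all compared genes. Without mitochondrial genes EGFR (0.57) and CAV1 (0.54) were also just under 1.5-fold. At that scale ITGB3 (0.68), LYPD6B (0.71) and PINLYP (0.81) were called beside ITGA5, so 4 were higher (15.1% of all compared genes) and 0 lower. In K80R against empty vector, 4 were called higher (12.6% of all compared genes) and 0 lower, ITGA5 (2.11), EGFR (1.80), ITGB1 (1.64) and CAV1 (1.57), with a median of 0.33. With the common sum the median was 0.05, where that of all compared genes was −0.41. EGFR (0.40), ITGB1 (0.27) and CAV1 (0.21) lost their calls there, and LY6E (−0.67) was called lower, as were 37.5% of all compared genes. Without mitochondrial genes 7 were called higher (19.2% of all compared genes) and 0 lower. None was called in K80R against wild type. ITGA5, the fibronectin receptor subunit, stood at 117 FPKM in K80R, 132 in wild type and 55.6 in empty vector, and its partner ITGB1 at 304 in K80R, 261 in wild type and 185 in empty vector. The vitronectin receptor subunits ITGAV, at 33.6 in K80R, 29.4 in wild type and 29.3 in empty vector, and ITGB5, at 94.5 in K80R, 120.1 in wild type and 89.7 in empty vector, lay within 1.5-fold. ITGB3 was low, at 2.29 in K80R, 2.92 in wild type and 1.65 in empty vector, and the leukocyte integrin gene ITGAM had 2 reads in K80R, 2 in wild type and 0 in empty vector. CD59, a complement regulator of the Ly6/uPAR family, stood at 69.1 in K80R, 63.5 in wild type and 47.7 in empty vector.

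Other serpins were mostly at or near 0. Of 25 of them, 10 had 0 reads in all 3 libraries and 6 reached a mean FPKM of 1. SERPINB5 (maspin), at 11.2 FPKM in K80R, 8.26 in wild type and 6.74 in empty vector, was called higher in K80R than in empty vector (ratio 1.67), as were 12.6% of all compared genes. So was SERPINB7, at 22.7 in K80R, 16.9 in wild type and 14.5 in empty vector (ratio 1.56), and no other of these 6 serpins was called in any of the 3 comparisons. Their differences between K80R and empty vector at a common sum were 0.29 for SERPINB5 and 0.20 for SERPINB7, and none of the 6 was called there. Below the minimum mean, SERPINA1 had 16 reads in K80R, 40 in wild type and 2 in empty vector. Its difference was 0.63 in wild type against empty vector. SERPIND1 had 19 reads in K80R, 55 in wild type and 33 in empty vector, a difference of −0.72 in K80R against wild type. SERPINB8, in the same chromosome 18 cluster as SERPINB2 and SERPINB7, stood at 6.58 in K80R, 5.95 in wild type and 5.99 in empty vector.

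Among 23 coagulation and protease-activated receptor genes, 8 reached a mean FPKM of 1. F3, the tissue factor gene that starts coagulation, stood at 6.84 FPKM in K80R, 7.82 in wild type and 3.24 in empty vector, with ratios to empty vector of 2.11 (1.72 to 2.60) in K80R and 2.41 (1.98 to 2.95) in wild type. F2RL2, a thrombin receptor gene, stood at 2.34 in K80R, 1.35 in wild type and 0.514 in empty vector and was called higher in both ZEB1 libraries. The crosslinking enzyme gene TGM2, at 97.8 in K80R, 120 in wild type and 75.9 in empty vector, had ratios to empty vector of 1.29 in K80R and 1.58 in wild type. Its call in wild type was lost at a common sum (0.20) and at a common sum without mitochondrial genes (0.58). The thrombin receptor gene F2R stood at 12.6 in K80R, 10.9 in wild type and 8.22 in empty vector and the trypsin receptor gene F2RL1 at 22.9 in K80R, 19.9 in wild type and 16.3 in empty vector, within 1.5-fold. Of the 8 genes, 2 were called higher in K80R (12.6% of all compared genes) and 3 in wild type (14.2%), and 0 lower. The list medians against empty vector were 0.42 in K80R and 0.32 in wild type. With the common sum they were −0.00 in K80R and −0.11 in wild type, where those of all compared genes were −0.41 and −0.42. GAS6 was called lower in both, at −0.79 in K80R and −0.59 in wild type, as were 37.5% and 38.2% of all compared genes. Without mitochondrial genes, 3 of the 8 were called higher in K80R (19.2% of all compared genes) and 2 in wild type (15.1%), and 0 lower.

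**Figure D4:**
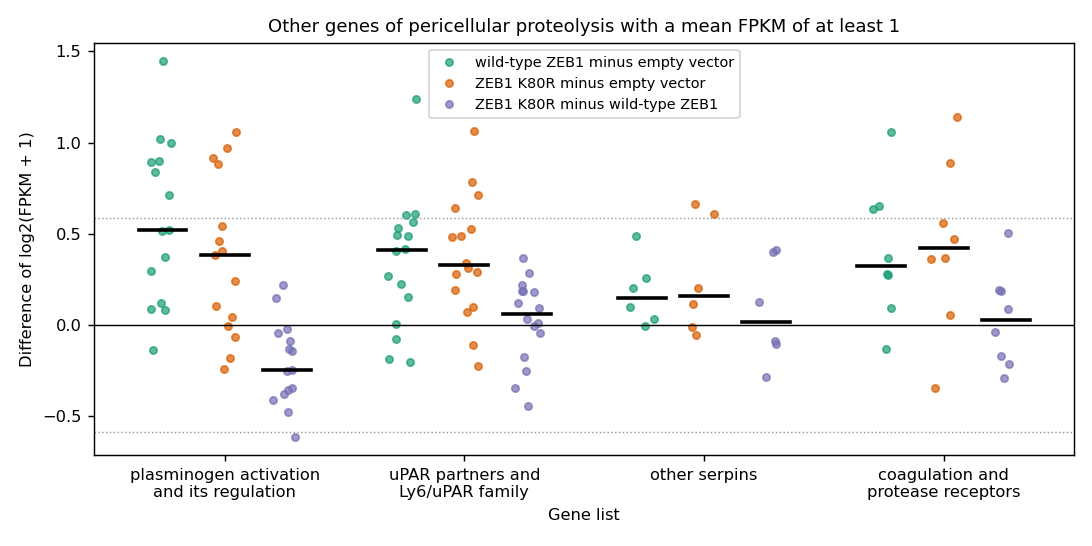
Difference of log2(FPKM + 1) for the compared genes of 4 lists (15, 16, 6 and 8 genes), 1 point per gene, colours for the 3 comparisons and black bars for medians, with dotted lines at 1.5-fold. The medians of plasminogen activation genes are 0.38 in K80R and 0.52 in wild type, each against empty vector, and −0.25 between K80R and wild type.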

How the data were processed

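RNA was sequenced from 3 libraries, 1 per group, grouped by the genotype in the labels. The authors deposited FPKM per gene. Tools listed, per the submitters' processing notes, were featureCounts 1.5.0-p3, DESeq2 1.20.0 and CASAVA, with the build hg38. Aligner, annotation and strand setting are not given in the sources used here. All 58735 identifiers are in GENCODE release 29.

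FPKM times gene length gave whole reads for 100% of values above 0 (tolerance 0.05 reads) with a library factor of 0.988 for ZEB1 K80R, 0.963 for wild-type ZEB1 and 1.08 for empty vector relative to the summed reads. These reads served for exact (Clopper-Pearson) 95% intervals, checked on simulated data. A count of 3 reads, the limit a count of 0 allows, is worth a SERPINB2 FPKM of 0.0820 in K80R, 0.0791 in wild type and 0.0687 in empty vector.

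Differences are of log2(FPKM + 1) over 12605 genes averaging 1 FPKM or more, called at a ratio of FPKM + 1 of 1.5. Without replicates no test was run. Named genes were the members, ZEB1, up to 6 list genes with the largest difference per list, and the 3 genes most like each member, of which 1 is not reported here. Other list and marker genes named were chosen after their values were seen. The members and lists were chosen with earlier results of these data known. Python 3.11.15, pandas 2.3.3 and scipy 1.17.1 were used.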

Additional observations from a re-analysis of the deposited data

How the results depend on the processing

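Counts of members called at 1.5-fold were 2 in wild-type ZEB1 against empty vector, 1 in ZEB1 K80R against empty vector and 0 in ZEB1 K80R against wild-type ZEB1. Those of list genes were 13, 12 and 1 of 45. For members, 22 of 27 alternative counts stayed within 1.5 times. The K80R against empty vector count was 2 with a filter of 0.1, with no filter, at a common sum of FPKM and at a common sum without mitochondrial genes, since SERPINB2 is then included. Of all genes, 14.1% were called higher with a filter of 0.1, 5.05% with no filter, 12.6% at a common sum and 26.1% without mitochondrial genes. The wild-type count was 1 with a 2-fold threshold. For list genes, 17 of 27 stayed by the same rule, which adds higher and lower calls together. Among these 17 are the counts against empty vector at a common sum, where the calls split by direction. They were 6 higher and 5 lower for wild type (11.9% and 37.7% of all genes there). For K80R they were 7 higher and 7 lower (12.6% and 35.9%). The minimum mean of 1 was applied anew at each common sum, so these counts are over 52 list genes at a common sum and 54 without mitochondrial genes. Against wild-type ZEB1, the K80R count was 3 with a pseudocount of 0.1 and with none, 2 with a filter of 0.1 and with no filter, 5 at a common sum, 6 at a common sum without mitochondrial genes and 0 at 2-fold. Of all genes, 7.63% were called higher and 8.01% lower with a pseudocount of 0.1, and 7.72% and 8.22% with no pseudocount. These shares were 6.63% and 5.37% with a filter of 0.1 and 2.37% and 1.92% with no filter. At 2-fold they were 1.64% and 1.14%. The K80R against empty vector count was 21 at a common sum without mitochondrial genes. There 26.1% of all genes compared were called higher and 15.3% lower. The same count was 3 at 2-fold (4.92% and 4.45% of all genes), and the wild-type count was 5 at 2-fold (5.47% and 3.78%). For K80R against wild-type ZEB1, 11.3% of all genes were called higher and 8.57% lower at a common sum. Without mitochondrial genes these shares were 18.1% and 7.51%. With the 45 genes held fixed, the K80R against wild-type count was 2 at either common sum. These were 1 higher and 1 lower at a common sum, and 2 higher and 0 lower without mitochondrial genes. The deposited scale gave 0 higher and 1 lower. The K80R against empty vector count was 17 without mitochondrial genes, with 17 higher and 0 lower. Of the 12605 compared genes, 19.2% were called higher and 13.4% lower there. Calls of these 45 against empty vector split at a common sum into 6 higher and 4 lower for K80R. For wild type they were 5 higher and 4 lower. At that scale 7.31% of all compared genes were called higher and 37.5% lower for K80R, and 7.81% and 38.2% for wild type. The deposited scale gave 12 higher for K80R, 13 higher for wild type and 0 lower for both. PLAUR in wild type was under 1.5-fold at a common sum, while SERPINB2 entered the count of members. Without mitochondrial genes in the sum PLAUR stayed called, at 0.69. No called member changed sign. No paired analysis was possible because each group had 1 library, and for the same reason no replicate could be left out. Depth limits SERPINB2 alone among the members, with 6 reads in empty vector. Where a cause is not the filter or threshold itself, the cause was not tested.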

Other observations

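Protein-coding genes within 250 kb of each member did not all share its difference, and those named here were chosen after their values were seen. Of 6 neighbours of PLAT averaging 1 FPKM or more, the DNA polymerase gene POLB was called higher than in empty vector, at 4.35 FPKM in K80R, 4.11 in wild type and 2.27 in empty vector. The channel gene VDAC3, another of these neighbours, was called lower, at 35.5 in K80R, 38.5 in wild type and 63.9 in empty vector. Of 12 neighbours of PLAUR, 2 were called higher in wild-type ZEB1 than in empty vector, where 14.2% of all compared genes were, ETHE1, a mitochondrial sulfur dioxygenase gene, at 6.18 in K80R, 7.46 in wild type and 1.57 in empty vector, and XRCC1, a repair scaffold gene, at 11.1 in K80R, 14.9 in wild type and 8.37 in empty vector. In K80R against empty vector 1 was called higher, ETHE1, and 1 lower, ZNF428. Between K80R and wild type, 2 neighbours of PLAUR were called lower, where 5.18% of all compared genes were. They were the zinc-finger genes ZNF404 and ZNF428. ZNF404 stood at 1.36 in K80R, 3.42 in wild type and 2.26 in empty vector. ZNF428 stood at 1.37 in K80R, 2.77 in wild type and 2.86 in empty vector. XRCC1 had a K80R against wild-type difference of −0.40, beside −0.48 for PLAUR. Around SERPINB2, 5 of 7 neighbours were below a mean FPKM of 1, and SERPINB10, SERPINB11 and HMSD had 0 reads throughout. Of the 2 compared there, SERPINB7 was called higher in K80R than in empty vector.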
